A study of Homo sapiens with 15 samples.

Results

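The 10 keratin genes KRT7, KRT8, KRT10, KRT15, KRT17, KRT18, KRT19, KRT80, KRT81 and KRT86 were followed by RNA-seq in breast cancer cells in which the RNA-binding protein RBM47 was induced with doxycycline. They were chosen by name from the 23368 genes of the count table, which holds 46 other keratin genes, by a rule that uses no measured value, although the names were drawn up with earlier results of these data known. The cells were 3 single-cell clones of brain-seeking derivatives of triple negative breast cancer lines, so that every clone stands for 1 cell of its line. WT6 and WT10 cells carry wild type RBM47, and MUT3 cells carry RBM47-I281fs, a frameshift mutant that truncates the protein. In non-clonal brain-seeking MDA231 cells the study detected no mutant protein by Western blot, and it calls the mutant unstable and therefore inactive. In all 3 clones the transgene is FLAG-tagged and sits behind a promoter that doxycycline switches on. Each clone was sequenced without doxycycline and at 1, 2.5, 5 and 25 ng/ml, 1 library per clone and dose, which gives 15 libraries and no replicates of a condition. WT10 and MUT3 cells derive from the MDA231 line. The sample labels call WT6 an MDA231 clone too, whereas the methods of the study derive it from CN34-BrM2 cells, so a difference between WT6 and the other clones cannot be told apart from a difference between lines or between single cells.

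Keratins are the intermediate filament proteins of epithelial cells. A filament is built from pairs of 1 acidic type I and 1 basic type II keratin, and a keratin without a partner is usually degraded. In the breast, luminal cells make the simple epithelial keratins KRT8 and KRT18 together with KRT7 and KRT19, whereas basal cells make KRT5, KRT14, KRT15 and KRT17. KRT10 is best known as a keratin of differentiating epidermis, KRT81 and KRT86 as hard keratins of the hair shaft, and KRT80 as an epithelial keratin found at and near desmosomes. By type, KRT10, KRT15, KRT17, KRT18 and KRT19 are type I, and KRT7, KRT8, KRT80, KRT81 and KRT86 are type II.

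The genes lie in the keratin clusters of the genome. In hg19 coordinates the type II genes lie on chromosome 12, from KRT80 (chr12:52562780-52585798, minus strand) through KRT7 (chr12:52626304-52645970, plus strand), KRT86 (chr12:52643084-52702947, plus strand) and KRT81 (chr12:52679697-52685318, minus strand) to KRT8 (chr12:53290971-53343738, minus strand). KRT18, the type I partner of KRT8, lies next to it (chr12:53342655-53346690, plus strand). The remaining type I genes are on the minus strand of chromosome 17, namely KRT10 (chr17:38974369-38978866), KRT15 (chr17:39669997-39678781), KRT19 (chr17:39679869-39684560) and KRT17 (chr17:39775694-39781094). Annotated exons of KRT8 and KRT18 overlap on opposite strands, as do those of KRT7 and KRT7-AS and of KRT10 and KRT10-AS1. Whether the libraries keep the strand is not given in the sources used here, so reads in those overlaps cannot be assigned with certainty.

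KRT81 and KRT86 are near-identical copies, and their counts are the least certain of the 10. Their coding sequences share a run of 605 identical bases, and 36.6% of all 75-base stretches of KRT81 transcripts and 36.5% of those of KRT86, the length of 1 read, occur in the transcripts of another gene. The 30 bases around the end of that run, within 1 exon of each gene, are shown because they hold the first base that differs after it. The differing base is in capitals (G666A, counted from the start of the KRT81 coding sequence):
KRT81: cgcctacctccgcaaGtcagacctggaggc
KRT86: cgcctacctccgcaaAtcagacctggaggc
The KRT81 stretch is at chr12:52682200-52682229 (minus strand) and the KRT86 stretch at chr12:52698727-52698756 (plus strand), both hg19 and coding. For KRT18 the shared portion was 28.4%, most of it with KRT8, and for KRT8 it was 18.8%, with pseudogenes among the genes it shares stretches with. It was 9.80% for KRT7, all of it with KRT7-AS, 4.57% for KRT17, and 0% for KRT10, KRT15, KRT19 and KRT80. All these portions count matches on either strand. They therefore include exons that overlap on opposite strands, as those of KRT8 and KRT18 do, and not only similar copies.

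The libraries held 14955172 to 44771871 reads on genes, with a median of 18152381. Values are normalized counts, which correct the reads of a gene for the size factor of its library, and 3 reads were worth 1.19 to 4.09 normalized counts. The RBM47 count followed doxycycline in all 3 clones, from 258 normalized counts in untreated WT6 cells to 3137, 8094, 3966 and 10425, from 168 in WT10 cells to 827, 2822, 8134 and 19877, and from 73.8 in MUT3 cells to 92.1, 336, 949 and 22084. In WT6 cells the library at 5 ng/ml therefore held less RBM47 than the library at 2.5 ng/ml. The WT6 libraries at 5 and 25 ng/ml also stood apart in another way. Relative to untreated WT6 cells, the median log2 difference of genes with transcripts of at most 1781 bases was 0.60 and 0.58 in them, and that of genes with transcripts of at least 5801 bases was -0.41 and -0.46, against differences of at most 0.08 in size in the other 10 treated libraries. Of the cell type markers, the mesenchymal VIM was at 50755 normalized counts or more in every library, while CDH1, the adhesion molecule of epithelial cells, reached at most 19.9, and the basal keratins KRT5 and KRT14 reached at most 9.97 and 4.98. Other luminal markers were present: EPCAM, an epithelial adhesion molecule, ran from 136 to 456 over all libraries, GATA3 from 65.4 to 213 and ERBB3 from 20.8 to 88.7, whereas FOXA1 ran from 131 to 260 in WT6 cells and was at most 12.98 elsewhere, and ESR1 was at most 11.97. Of the fibroblast genes, DCN ran from 190 to 735 in WT6 cells and was at most 1.08 elsewhere, and LUM was at most 1.03 in any library. COL1A1 was present in every clone, from 178 to 250 in WT6, 272 to 493 in WT10 and 198 to 282 in MUT3 cells. PDGFRB was at most 24.9 in any library.

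The makeup of the keratin RNA set the WT6 clone apart from both MDA231 clones. Levels of different genes were compared per kb of transcript. In WT6 cells KRT7 led with a median of 28195 normalized counts per kb over the 5 libraries, ahead of KRT8 (8467), KRT18 (7676), KRT81 (6555), KRT80 (1645), KRT19 (1371), KRT10 (516), KRT86 (145), KRT17 (24.4) and KRT15 (17.4). The range of KRT7 lay above that of every other keratin, whereas KRT8 and KRT18, KRT18 and KRT81, KRT80 and KRT19, KRT19 and KRT10, and KRT17 and KRT15 overlapped their neighbours. In WT10 cells KRT18 (6499) and KRT8 (6027) led with overlapping ranges, followed by KRT19 (992), KRT10 (562), KRT80 (154), KRT81 (81.8), KRT7 (77.2), KRT15 (46.8), KRT86 (10.6) and KRT17 (2.36). There the range of KRT81 overlapped those of KRT80 and KRT7. In MUT3 cells KRT18 (8433) stood above KRT8 (4722) without overlap, and KRT19 (797), KRT10 (578), KRT80 (73.4), KRT15 (31.2) and KRT7 (12.4) followed, each apart from the next. KRT81 (2.88), KRT86 (0.880) and KRT17 (0) came last in MUT3 cells, at or under the worth of a few reads.

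Type II keratins outweighed type I keratins in WT6 cells and not in the other clones. The summed level per kb of the 5 type II genes divided by that of the 5 type I genes was 4.64, 5.08, 4.23, 3.60 and 3.41 at rising dose in WT6 cells. It was 0.755 to 0.822 in the WT10 clone and 0.469 to 0.519 in the MUT3 clone, so that the 3 clones did not overlap. KRT7 alone made up between 48.5% and 52.1% of the summed level in WT6 cells, against at most 0.546% in WT10 and 0.0961% in MUT3 cells. KRT8 and KRT18 together made up between 28.2% and 37.3% in WT6 cells, between 86.1% and 89.9% in WT10 cells and between 89.1% and 90.1% in MUT3 cells. Within that pair, KRT8 per kb was between 0.858 and 1.15 times KRT18 in WT6 and WT10 cells and between 0.542 and 0.592 times KRT18 in MUT3 cells. The 10 genes took between 0.427% and 0.728% of all reads on genes in WT6 cells, and between 0.122% and 0.201% in the other clones. These are bulk cultures, in which fewer cells that make a keratin and less RNA per cell cannot be told apart.

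**Figure D1:**
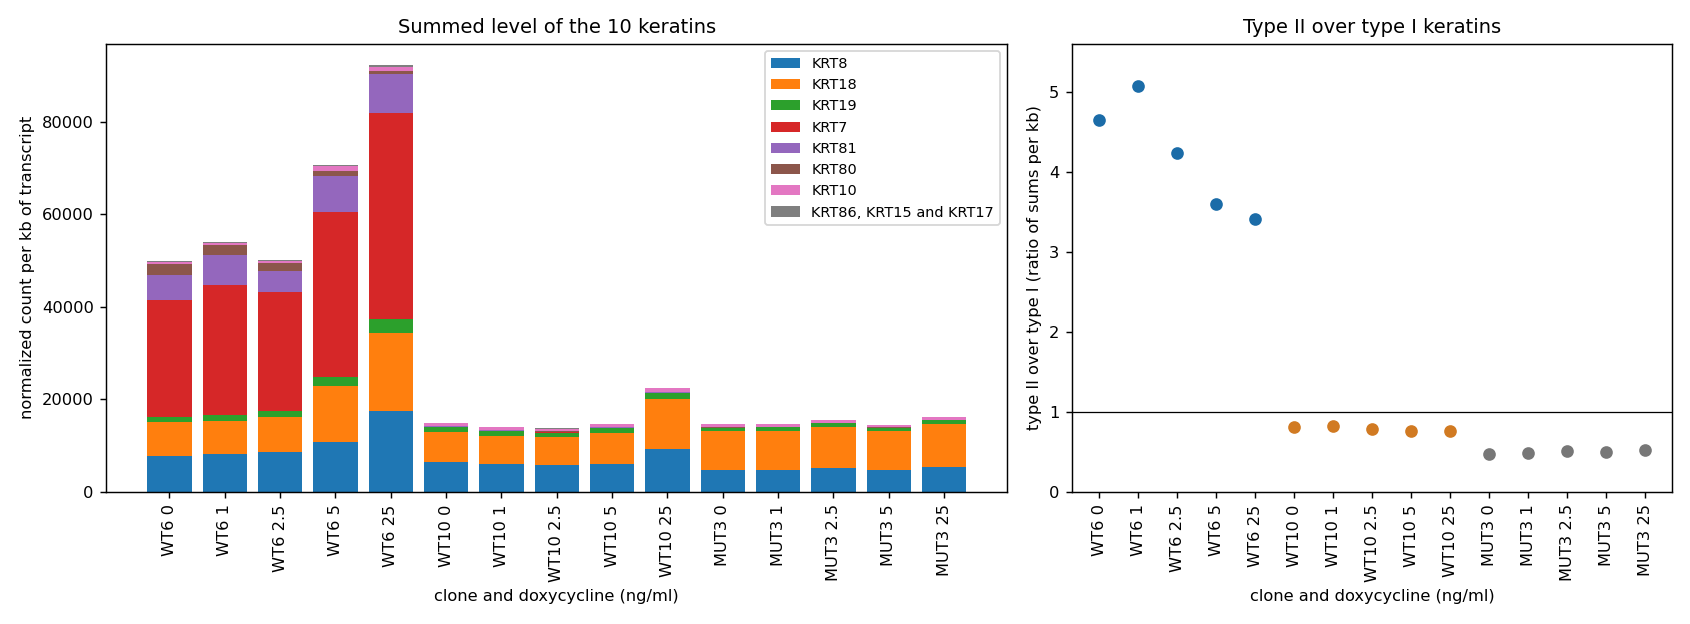
Left, summed level of the 10 keratins (normalized count per kb of transcript, linear axis from 0) in each of the 15 libraries, stacked by gene, with KRT86, KRT15 and KRT17 added together; right, ratio of summed type II to summed type I levels per library, with a line at 1. KRT7 and KRT81 fill much of the WT6 bars and are hardly visible in the others, and the ratio lies between 3.41 and 5.08 in WT6 cells but below 1 in every WT10 and MUT3 library.

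Without doxycycline, KRT7, KRT81, KRT86 and KRT80 stood far apart between clones. KRT7 stood at 41311 normalized counts in untreated WT6 cells, 125 in untreated WT10 and 15.01 in untreated MUT3 cells. The ratio of the WT6 to the WT10 library was 329, with a 95% interval from 274 to 398 that covers counting error only. KRT80 stood at 8904, 597 and 235, and KRT81 at 10374, 144 and 3.75, the last of which is 3 reads. For KRT81 the ratio of the WT6 to the WT10 library was 72.1 (interval 60.8 to 86.2).

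The untreated level was also tested, as the height at 0 ng/ml of a line fitted through the 5 libraries of each clone on the log2(normalized count + 1) scale, with limma and Benjamini-Hochberg adjustment over all genes. The fit took 12644 genes that averaged 10 normalized counts or more in every clone, among them 7 of the 10 keratins. KRT17, KRT81 and KRT86 did not reach that mean in MUT3 cells, nor KRT17 in WT10 cells, and entered only a fit of 13637 genes with a mean of at least 10 over all libraries. They are there because of the clones in which they are high, so their levels are given without a test. Since each clone is 1 single-cell clone, these tests measure spread between libraries and not between clones. Between WT6 and WT10 cells 3 of 7 keratins differed, where 59.6% of all genes did. KRT7 was higher in WT6 cells by 8.59 ± 0.17 (SE) on the log2 scale (adjusted p = 3.64e-14) and KRT80 by 3.91 ± 0.13 (adjusted p = 7.25e-12), and KRT15 was lower, with a difference of -1.71 ± 0.28 (adjusted p = 9.99e-05). KRT8 (0.34, adjusted p = 0.053), KRT18 (0.18), KRT19 (0.04) and KRT10 (-0.18) did not pass.

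Between WT6 and MUT3 cells 6 of 7 keratins differed in untreated level, where 61.7% of all genes did. KRT7 was higher in WT6 cells by 11.19 ± 0.29 and KRT80 by 5.26 ± 0.15, and KRT8 (0.61) and KRT19 (0.38) were higher by less. The KRT19 call was lost without the untreated WT6 library or the MUT3 library at 0 or 25 ng/ml, with adjusted p up to 0.108. KRT15 (-1.23) and KRT18 (-0.39) were lower in WT6 cells. All of these are fitted heights. For KRT15 and KRT18 the measured untreated libraries differed by less, which was not so for KRT8 and KRT19. The ratio of the untreated libraries, WT6 to MUT3, was 0.584 for KRT15 (counting interval 0.333 to 1.01) and 0.859 for KRT18 (0.835 to 0.884). The KRT18 call had an adjusted p of 0.041 and was lost without the WT6 library at 1, 2.5 or 25 ng/ml, the WT10 library at 1 ng/ml or the MUT3 library at 0, 1, 2.5 or 25 ng/ml, with adjusted p up to 0.141. With the length and GC trends removed the KRT18 difference was -0.12 (adjusted p = 0.20).

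WT10 and MUT3 cells, which share a parental line, differed in 3 of 7 keratins, where 28.2% of all genes did. KRT7 was higher in WT10 cells by 2.60 ± 0.31 on the log2 scale (adjusted p = 3.09e-05) and KRT80 by 1.35 ± 0.16 (adjusted p = 2.00e-05), whereas KRT18 was lower, with a difference of -0.57 ± 0.16 (adjusted p = 0.0134). The measured ratio of the untreated WT10 to the untreated MUT3 library was 0.771 for KRT18 (counting interval 0.748 to 0.794), a smaller difference than the fitted one. The KRT18 call was lost without the WT10 library at 25 ng/ml (-0.41, adjusted p = 0.051) or the untreated MUT3 library (-0.56, adjusted p = 0.081). KRT19 did not pass by limma but did by edgeR and DESeq2. Its measured ratio, untreated WT10 to untreated MUT3, was 1.41 (counting interval 1.29 to 1.53). As a description, untreated KRT86 was 14.4 times as high in WT6 as in WT10 cells (counting interval 9.23 to 23.6). It had no read in untreated MUT3 cells, so that WT6 was at least 87.1-fold and WT10 at least 6.06-fold higher, against a floor of 3 reads in that library. Untreated KRT17 had 15 reads in WT6, 8 in WT10 and 0 in MUT3 cells. With treated libraries included, the 5 libraries of WT6 lay above the 5 of WT10 without overlap for 5 keratins (KRT7, KRT17, KRT80, KRT81 and KRT86) and below for KRT15, where 46.6% of 13637 genes did not overlap. KRT17, KRT81 and KRT86 are among those genes through the clones where they are high. The 5 WT10 libraries lay above the 5 MUT3 libraries for 6 keratins (KRT7, KRT8, KRT19, KRT80, KRT81 and KRT86), where 37.1% of genes did not overlap. WT6 and MUT3 did not overlap for 8 keratins (7 higher in WT6 cells, KRT15 lower), where 54.6% of genes did not.

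KRT8 and KRT18, the pair that forms the filaments of simple epithelia, had the same pattern over doses. KRT8 measured 13843, 14552, 15105, 19108 and 31010 normalized counts at 0, 1, 2.5, 5 and 25 ng/ml in WT6 cells. It measured 11288, 10676, 10123, 10753 and 16573 in WT10 cells, and 8159, 8321, 9065, 8424 and 9624 in MUT3 cells. In WT6 cells KRT8 was high at 5 and above all at 25 ng/ml, in WT10 cells at 25 ng/ml alone, and the MUT3 libraries lay within a narrow band. KRT18 measured 10240.3, 10036, 10846, 17114 and 24036 in WT6 cells, 9183, 8663, 8692, 9440.4 and 15294 in WT10 cells, and 11915, 11912, 12466, 11768 and 12882 in MUT3 cells. Here too WT6 was high at 5 and 25 ng/ml and WT10 at 25 ng/ml. At 25 ng/ml the ratio to the untreated library was 2.24 for KRT8 and 2.35 for KRT18 in WT6 cells, 1.47 and 1.67 in WT10 cells, and 1.18 and 1.08 in MUT3 cells.

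KRT19, a type I keratin of luminal cells that lacks most of the tail domain, separated both wild type clones. It measured 1507, 1722, 1906, 2801 and 3994 normalized counts in WT6 cells at rising dose. In WT10 cells it measured 1557, 1366, 1286, 1378 and 1588, and in MUT3 cells 1108, 1101, 1215, 1061 and 1219. KRT19 was thus higher at each dose step in WT6 cells, while its WT10 libraries at 0 and 25 ng/ml were the highest of that clone and close to each other. KRT7, the type II keratin of glandular and ductal epithelium, measured 41311, 45816, 41894, 58105 and 72760.5 in WT6 cells. It measured 125, 99.3, 104, 129.5 and 176 in WT10 cells and 15.01, 17.8, 20.8, 20.2 and 25.1 in MUT3 cells, where it rests on between 12 and 24 reads. In each clone the library at 25 ng/ml held the most KRT7.

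KRT80 went the other way. It measured 8904, 8004, 6371, 4266 and 2697 normalized counts in WT6 cells, so that every higher dose had a lower count. In WT10 cells it measured 597, 620.1, 604, 452 and 416, with the libraries at 5 and 25 ng/ml below the other 3. In MUT3 cells it measured 235, 284, 296, 256 and 324, with the untreated library lowest and that at 25 ng/ml highest. At 25 ng/ml the ratio to the untreated library was 0.303 in WT6 cells (95% counting interval 0.289 to 0.318), 0.696 in WT10 cells (0.610 to 0.793) and 1.38 in MUT3 cells (1.14 to 1.66).

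The hard keratins and those of basal cells and epidermis changed to unlike degrees. In WT6 cells KRT15 rests on at most 35 reads and KRT17 on at most 99. KRT81 measured 10374, 12644, 8699.6, 14701 and 16012 normalized counts in WT6 cells and between 143 and 212 in WT10 cells, and KRT86 between 286 and 454 in WT6 cells and between 18.9 and 33.2 in WT10 cells. In MUT3 cells they had at most 8 and 11 reads. KRT10 measured 1009, 1107, 1050.4, 2501 and 2002 in WT6 cells, so that the step lay between 2.5 and 5 ng/ml and the library at 5 ng/ml was the highest. Its values ran from 1126 to 1549 in WT10 cells and from 1162 to 1448 in MUT3 cells. KRT15, a keratin of basal cells, stayed low, between 18.5 and 43.6 in WT6, 67.5 and 90.8 in WT10 and 45.02 and 72.1 in MUT3 cells. KRT17, a keratin of basal and stressed epithelium, measured 16.4, 37.1, 36.7, 59.9 and 123 in WT6 cells, at most 8.65 in WT10 cells and at most 2.22 in MUT3 cells, which is 2 reads. The ratio of KRT17 at 25 to 0 ng/ml in WT6 cells was 7.50, with a counting interval from 4.34 to 13.9.

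**Figure D2:**
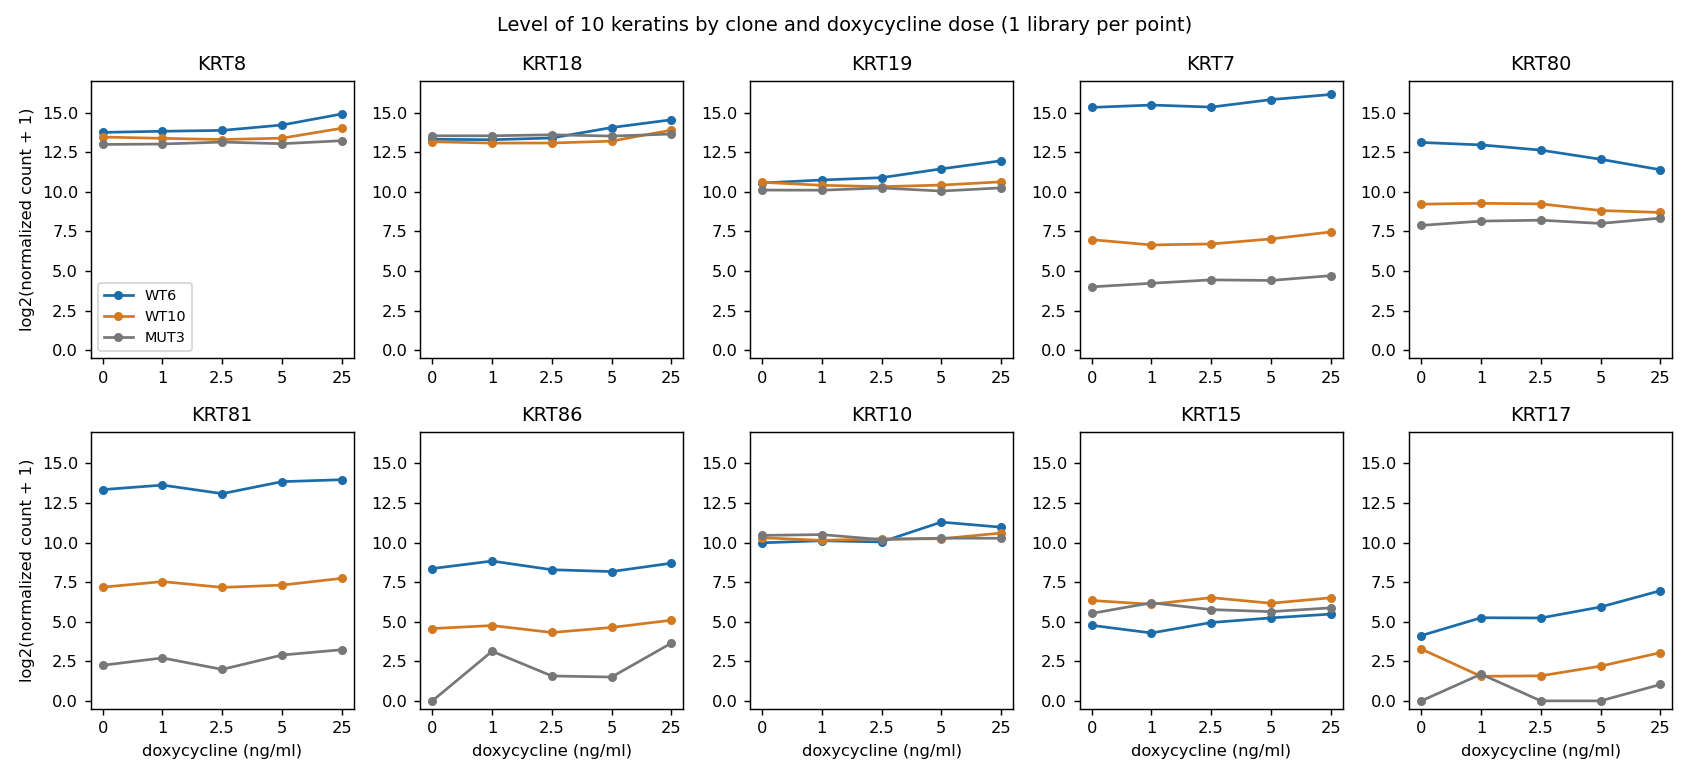
Level of each of the 10 keratins as log2(normalized count + 1) against doxycycline dose (0, 1, 2.5, 5 and 25 ng/ml, evenly spaced), 1 point per library, with the points of a clone joined. KRT8, KRT18, KRT10 and KRT19 lie close together in all 3 clones, KRT7, KRT80, KRT81, KRT86 and KRT17 are separated by clone, and KRT80 falls with dose in WT6 cells from 8904 to 2697 normalized counts.

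The change with dose was tested in the same fit, as the slope that each clone had against log2(dose + 1) over its 5 libraries. In WT6 cells 7 of 7 keratins tested had a slope, 6 of them up, where 57.5% of all genes had one (29.2% up and 28.3% down). The median slope of the keratins was 0.25, and that of all genes 0.01. KRT19 rose by 0.32 ± 0.03 (SE) on the log2 scale per unit of log2(dose + 1) (adjusted p = 6.46e-06), KRT18 by 0.29 ± 0.04 (adjusted p = 9.03e-05) and KRT8 by 0.26 ± 0.04 (adjusted p = 0.000109). KRT10 (0.25), KRT15 (0.21) and KRT7 (0.18) rose as well, and KRT80 fell, with a slope of -0.39 ± 0.03 (adjusted p = 2.60e-06). In the wider fit 9 of 10 keratins had a slope in WT6 cells, where 55.4% of genes had one. KRT17, KRT81 and KRT86 are in that fit through the clones in which they are high, so this count does not test them. Their WT6 slopes, given without a test, were 0.55 ± 0.08 for KRT17, 0.14 ± 0.05 for KRT81 and 0.03 for KRT86. The KRT15 slope, with an adjusted p of 0.044, was lost in 14 of 31 other settings, and without the library at 25 ng/ml KRT7, KRT8 and KRT15 no longer passed (4 of 7, and 4619 of 12602 genes).

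In WT10 cells 3 of 7 keratins had a slope, where 20% of all genes had one. KRT18 rose by 0.16 ± 0.04 (adjusted p = 0.0156) and KRT8 by 0.12 ± 0.04 (adjusted p = 0.038), and KRT80 fell, with a slope of -0.13 ± 0.04 (adjusted p = 0.0309). KRT7 had a slope of 0.15 that missed the threshold by limma (adjusted p = 0.069), although edgeR and DESeq2 on the whole reads called it. The slopes of KRT10 (0.08), KRT15 (0.05) and KRT19 (0.02) were smaller. The median slope of the 7 was 0.08, against -0.00 for all genes. The rise of KRT8 and KRT18 rests on the library at 25 ng/ml: without it 0 of the 7 and 6 of all 12633 genes passed by limma, and the slopes of KRT8 and KRT18 became -0.04 and 0.01. The KRT80 slope was -0.13 without that library (adjusted p = 0.41), so that its size was kept but not its call. Without the library at 1 ng/ml the slope of KRT18 alone passed, and 1672 of 12648 genes did. The KRT8 call was also lost without the WT6 library at 1 ng/ml or any 1 of the 5 MUT3 libraries, with adjusted p up to 0.055.

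In MUT3 cells limma called 0 of 7 keratins, and 0% of all genes. None of the 7 had an unadjusted p under 0.05, and neither edgeR nor DESeq2 on the whole reads called any of them. The slopes ran from -0.05 for KRT10 to 0.14 for KRT7. Their 95% intervals reached from -0.04 to 0.13 for KRT8 and from -0.07 to 0.11 for KRT18, so that rises of the size fitted in WT6 cells lay outside them. For KRT7, with few reads, the interval from -0.08 to 0.36 held the WT6 slope of 0.18. For KRT86, in the wider fit, the slope was 0.58 with an interval from 0.11 to 1.06 that left out 0, but it rests on at most 11 reads per library and did not pass after adjustment (adjusted p = 1.00). When the MUT3 clone was fitted alone, with its own smaller spread, KRT8 passed with a slope of 0.05 (adjusted p = 0.036), as did 176 of 12644 genes.

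**Figure D3:**
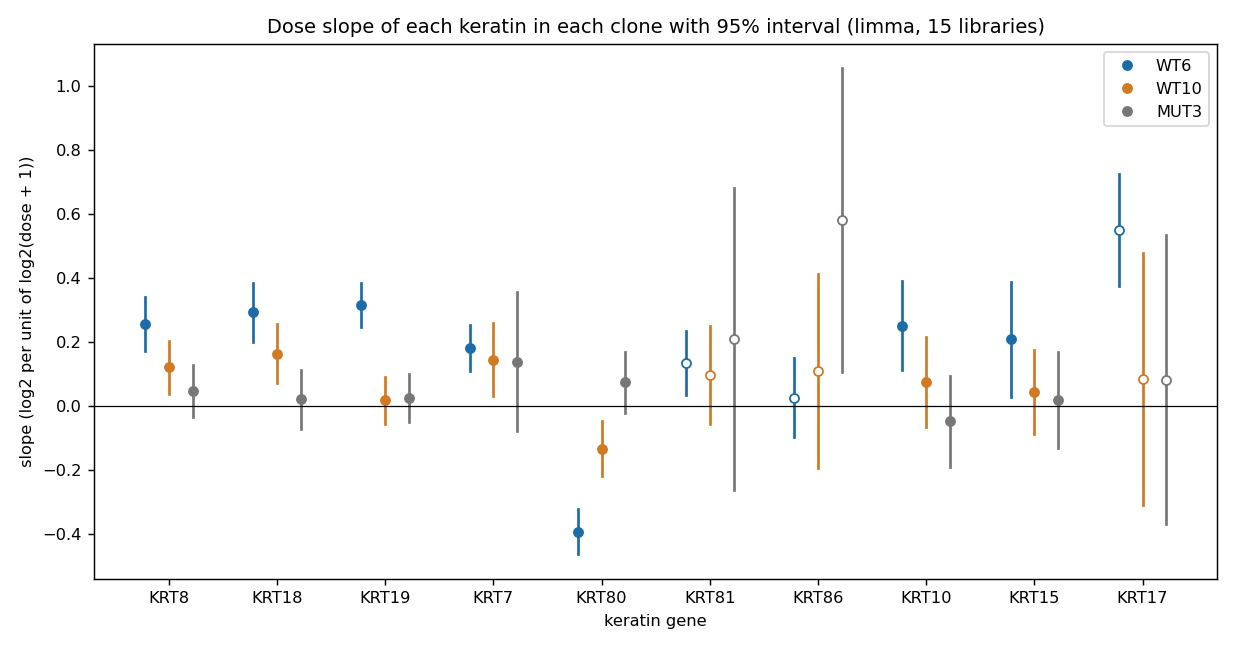
Dose slope of each keratin in each clone, in log2 units per unit of log2(dose + 1), with the 95% interval from limma over 15 libraries; filled points are from the fit of 12644 genes and open points (KRT81, KRT86 and KRT17) from the wider fit of 13637 genes. Of the filled points, those of WT6 lie away from 0 for all 7 keratins, KRT80 alone below it, and the filled MUT3 points all have intervals that cross 0, whereas the open MUT3 point of KRT86 does not.

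Differences between slopes were tested directly. Between WT6 and MUT3 cells 5 of 7 keratins differed, where 38.6% of all genes did. The slope was higher in WT6 cells for KRT10 by 0.30 ± 0.09, for KRT19 by 0.29 ± 0.05, for KRT18 by 0.27 ± 0.06 and for KRT8 by 0.21 ± 0.06, and lower for KRT80, with a difference of -0.47 ± 0.06 (adjusted p = 0.000185). The KRT7 slopes differed by 0.04, with an interval from -0.19 to 0.27. Without the WT6 library at 25 ng/ml 3 of the 7 differed, and without the MUT3 library at 25 ng/ml 2 of them, KRT19 and KRT80. Between WT6 and WT10 cells, which carry the same wild type transgene, 2 of 7 differed, where 14.4% of all genes did. These were KRT19, with a difference of 0.30 ± 0.05 (adjusted p = 0.00636), and KRT80, with a difference of -0.26 ± 0.05 (adjusted p = 0.0143). The calls were lost without the WT6 library at 25 ng/ml (0 of 7, and 62 of 12602 genes), and without the untreated WT10 library that of KRT80 was lost.

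Between WT10 and MUT3 cells, the comparison within 1 parental line, limma called 0 of 7 slope differences, where 5.62% of all genes were called. KRT18 and KRT80 had an unadjusted p under 0.05 (2 of 7). The slope was higher in WT10 cells by 0.14 for KRT18 (95% interval 0.01 to 0.27, adjusted p = 0.18), and for KRT80 the difference was -0.21 (-0.34 to -0.08, adjusted p = 0.056). edgeR called none of the 7 and DESeq2 called KRT80. These 3 comparisons share their libraries in pairs, so their counts are not independent.

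A length trend in the WT6 libraries moved with these results. Of the 7 keratins tested, 6 have transcripts of at most 2143 bases, and KRT80, the one that fell, has the longest at 3873 bases. In WT6 cells at 25 ng/ml the log2 change from the untreated library was 1.41 for KRT19, 1.23 for KRT18, 1.16 for KRT8 and 0.82 for KRT7. The values that the trend of all genes with transcript length and GC content gives at their length and GC content were 0.65, 0.59, 0.50 and 0.59. For KRT80 the change was -1.72 and the trend gave -0.07. For KRT10 at 5 ng/ml the change was 1.31 and the trend gave 0.22. With the trends of every library removed in the wider fit, the WT6 slopes were 0.16 for KRT19, 0.15 for KRT18, 0.14 for KRT8, 0.17 for KRT10, 0.04 for KRT7 and -0.37 for KRT80. These still passed, while KRT15 (0.09) no longer did. Without a test, the slopes of KRT17 and KRT81 were then 0.40 and 0.02. The slope of KRT18 then differed between WT10 and MUT3 cells, by 0.13 (adjusted p = 0.011). Without the 2 WT6 libraries at 5 and 25 ng/ml, the slope of KRT80 was the only 1 of 7 that passed in WT6 cells (-0.26, adjusted p = 0.032). In that fit 177 of 12597 genes passed in WT6 cells. For 5 of 7 keratins and 4890 genes the slope passed in WT10 cells, and 3 of 7 keratins (KRT10, KRT18 and KRT80) and 3042 genes differed between WT10 and MUT3 cells, so that the calls of all genes moved as those of the keratins did. What part the length trend has in the keratin changes was not tested beyond these fits.

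**Figure D4:**
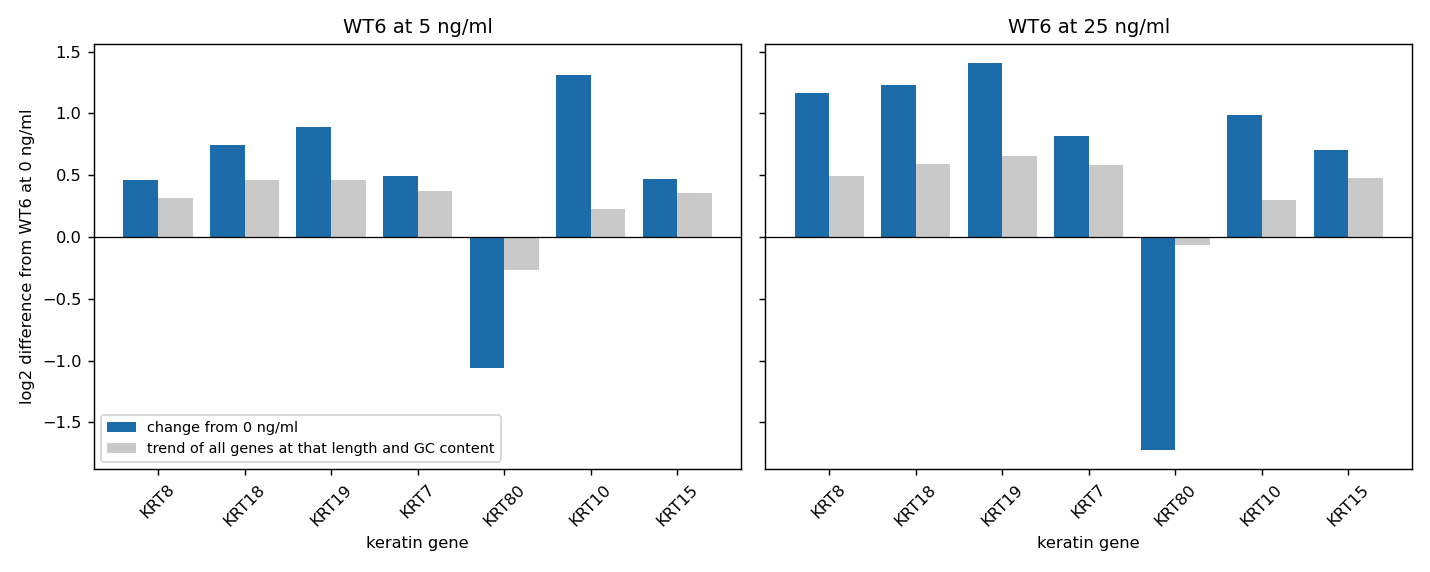
For WT6 cells at 5 ng/ml (left) and 25 ng/ml (right), the log2 difference of the 7 keratins tested from the untreated WT6 library (blue) beside the difference that all genes of the same transcript length and GC content show in that library (grey); bars start at 0. At 25 ng/ml the grey bar is 0.65 of a change of 1.41 for KRT19 and 0.59 of 0.82 for KRT7, and it is close to 0 for KRT80, whose change was -1.72.

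Of the 46 other keratin genes, 26 had a read in any library and 3 had a mean of at least 10. KRT6A, a keratin of wounded and activated epithelium, measured 41.6, 60.7, 81.8, 169 and 710.0 normalized counts in WT6 cells, and had at most 1 read in any library of the other clones. It is in the wider fit through WT6 cells alone, so its WT6 slope of 0.95 ± 0.05 is given without a test. That slope was above the WT6 slope of any of the 10 keratins, and KRT6A was named here as the most abundant of the other keratins. KRT83, a hard keratin, ran from 47.7 to 74.5 in WT6 cells and was at most 1.19 elsewhere. Its WT6 slope of -0.09 is given without a test for the same reason. KRT34, also a hard keratin, rose in WT6 cells by 0.34 (adjusted p = 0.0041) and in WT10 cells by 0.22 (adjusted p = 0.032), and the WT6 slope missed the threshold with the trends removed (0.22, adjusted p = 0.055). KRT34 had its highest counts in MUT3 cells (up to 48.2), and KRT33B, another hard keratin, had at most 2 reads in any WT6 library and up to 10 in MUT3 cells.

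The genes that anchor keratin filaments were read from a list of 22 desmosome and plakin genes. In WT6 cells 2 of the 14 tested rose and 6 fell, with a median slope of -0.05, where 29.2% of all genes rose and 28.3% fell. In WT10 cells 1 rose and 2 fell, where 20% of all genes changed, and in MUT3 cells limma called 0 of them. PLEC, which encodes plectin, a linker of intermediate filaments, measured 47721 normalized counts in untreated WT6 cells and 27971 at 25 ng/ml, a slope of -0.21 (adjusted p = 0.0035), and DSG2, a desmosomal cadherin, had a slope of -0.16 (adjusted p = 0.0018). With the length and GC trends removed the slope of PLEC was -0.13 and that of DSG2 was -0.08, and 4 genes of the list rose and 5 fell. Of 9 other intermediate filament genes tested, 1 rose and 3 fell in WT6 cells and 3 fell in WT10 cells. Of all genes 57.5% were called in WT6 cells and 20% in WT10 cells. LMNB2 and LMNB1, which encode lamins of the nuclear envelope, fell in both wild type clones, with slopes of -0.34 and -0.24 in WT6 cells and -0.24 and -0.14 in WT10 cells. VIM, the filament protein of mesenchymal cells, had a slope of -0.00 in WT6 cells and did not pass in any clone, but with the trends removed it fell in WT6 (-0.08) and WT10 cells (-0.06).

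As a description over the 15 libraries, the genes whose log2 counts were most like those of each keratin were found by Pearson's r. For KRT7 they were SERINC2, FUCA1 and TSPAN13 (r = 0.997, 0.997 and 0.996), and for KRT80 S1PR3, CPD and GCNT1 (0.996, 0.993 and 0.992). Both keratins differ between clones far more than within them, so these values mostly reflect 3 clone levels. For KRT8 the nearest genes were B3GAT3, PQLC2 and CCDC24 (0.988, 0.987 and 0.985), for KRT19 LYPLA2, GSTK1 and ITPA (0.987, 0.984 and 0.984), and for KRT18 PTOV1, GALT and C2orf18 (0.979, 0.974 and 0.974). KRT10 (LOXL3, 0.958) and KRT15 (PARP6, 0.954) had less similar nearest genes.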

How the data were processed

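RNA from 15 libraries was sequenced as polyadenylated RNA with paired-end reads. The authors aligned the reads with STAR to hg19, used HTSeq 0.5.4 for gene counts and divided the counts by DESeq size factors. The deposited table therefore holds a normalized signal for 23368 genes and 5 tallies of reads not counted for a gene, which took no part in any test. Reads that HTSeq, run with default settings, assigned to no feature were between 56.5% and 59.6% of the tallied total. Whether they all lie outside annotated genes cannot be told, since it is not given whether the libraries keep the strand. The annotation is not given in the sources used here. Dividing each column by the worth of 1 read gave whole numbers for 100% of the values (tolerance 0.001 reads).

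Dose slopes and untreated levels were fitted with limma 3.58.1 in R 4.3.3 on log2(normalized count + 1) with vooma precision weights, 6 coefficients over 15 libraries (9 residual degrees of freedom), for genes with a mean of at least 10 in each clone, and adjusted by Benjamini-Hochberg over all genes with a threshold of 0.05. Fold changes on this scale understate those of low genes. edgeR 4.0.16 and DESeq2 1.42.0 were run on the recovered reads as alternatives. Length and GC trends were fitted to each library's deviation from its clone mean as natural splines (4 degrees of freedom each). Gene positions, transcript lengths and sequences came from GENCODE 44 on hg19, matched for 91.9% of genes. The fits were tested on simulated data with known changes. Ratios of 2 libraries have exact binomial 95% intervals that cover counting error only. The keratins, the gene lists and the tests were chosen with earlier results of these data known. Of each gene list at most the 4 genes with the largest mean count were named. The 3 genes most correlated with each keratin were found by rule. Cell type markers came from a separate list of markers. Of all these genes the text prints a selection. Python 3.11.15 with pandas 2.3.3 and scipy 1.17.1 was used for the rest.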

Additional observations from a re-analysis of the deposited data

Results flagged for a closer look

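The dose slopes of 7 keratin comparisons differed between clones past the threshold, by limma with adjustment over all genes. Between WT6 and MUT3 cells the slope difference was 0.21 for KRT8, 0.30 for KRT10, 0.27 for KRT18, 0.29 for KRT19 and -0.47 for KRT80. Between WT6 and WT10 cells it was 0.30 for KRT19 and -0.26 for KRT80. With the length and GC trends of the libraries removed, the differences from MUT3 cells were 0.10, 0.23, 0.13, 0.14 and -0.43, and those between WT6 and WT10 cells 0.15 and -0.26, and all 7 still passed. Without the WT6 libraries at 5 and 25 ng/ml only that of KRT80 between WT6 and MUT3 cells did (-0.34, adjusted p = 0.03).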

How the results depend on the processing

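Counts are of 7 keratins unless 10 are named. Where no number for all genes stands beside them, they show how calls moved and are not a result about keratins as a group. No paired analysis was possible because each clone and dose has 1 library and the labels give no replicate numbers that clones share. With 1 library left out, keratins with a slope numbered between 4 and 7 in WT6, between 0 and 4 in WT10 and 0 in MUT3 cells; slope differences numbered between 0 and 1 for WT10 against MUT3, 2 and 5 for WT6 against MUT3 and 0 and 4 for WT6 against WT10. Level differences numbered between 2 and 4 for WT10 against MUT3, 4 and 7 for WT6 against MUT3 and 3 and 4 for WT6 against WT10. The slope of KRT8 in WT10 cells reversed to -0.035 without the 3 libraries at 25 ng/ml, and ran from -0.035 (without WT10 at 25 ng/ml) to 0.19 (without untreated WT10) with 1 library left out.

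With all 10 keratins tested (mean over all libraries, or no filter) 5 levels differed between WT10 and MUT3 and 6 between WT6 and WT10, where the added keratins had passed through the clones in which they are high. Of all genes, 3906 and 8299 of 13637 differed in the fit by mean over all libraries, and 3852 and 8797 of 19406 without a filter. With length and GC trends removed, the levels that differed were 5 and 6 of 7. They were 7 and 9 of 10 with the same added keratins, in a fit chosen after seeing the data. With the trends removed 1 slope differed between WT10 and MUT3, as it did with DESeq2 and without 5 ng/ml. Slopes on the rank of the dose passed for 0 in WT10 cells. With the RBM47 count in place of the dose 0 slopes passed in WT6 or WT10 cells, and 0 slopes differed between WT6 and either other clone; of all 12644 genes 2 passed in WT6, 89 in WT10 and 0 for these differences. Without 25 ng/ml 0 passed in WT10 cells and for both differences of WT6, against 17, 87 and 2 of 12588 genes. Without WT6 at 5 and 25 ng/ml, also chosen after seeing the data, the slopes called were 1 in WT6 and 5 in WT10 cells, the slope differences 3 (WT10 against MUT3), 1 and 0, and the levels 5 (WT10 against MUT3) and 5 (WT6 against WT10). With clones fitted apart, 1 slope was called in MUT3 cells, 3 differed between WT10 and MUT3 and 0 between WT6 and WT10, and 5 levels differed between WT10 and MUT3. Where the number of keratins tested does not set these changes, their cause was not tested. Of 1986 values of single keratins under an alternative, 50 that passed in neither fit changed sign, none larger than 0.15. Scaling by TMM in place of DESeq size factors moved no library's median by more than 0.04. Counts of a few reads, at most 2 for KRT17 and at most 8 for KRT81 in MUT3 cells, set the limit of depth.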
